A study of Homo sapiens with 12 samples.

Results

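The 58 genes described here encode nuclear subunits of the mitochondrial respiratory chain, chosen by gene symbol from the 60660 genes measured in each library. They comprise 36 subunits of complex I, 4 of complex II, 8 of complex III and 10 of complex IV. NDUFA4 carries a complex I name but is a subunit of complex IV and is counted there. All 58 passed the filter on low values. They were followed in Kelly cells, an established human line of MYCN-amplified, adrenergic neuroblastoma, in which doxycycline switches on a short hairpin RNA (shRNA). The groups were shRCOR2 cells (shRNA against RCOR2) with 2 µg/mL doxycycline (induced) or without it (untreated), shRCOR1 cells (shRNA against RCOR1) induced or untreated, and shCTRL cells (non-targeting shRNA) induced or untreated. Each of the 6 groups had 2 libraries, 12 in all. Induced cells are labelled 72 h, while the treatment protocol names shorter times, so the length of induction is uncertain. The labels do not say whether replicates were separate cultures, so p-values measure the spread between these libraries only, nor whether each line is a clone. RCOR1 and RCOR2 encode scaffold proteins of the CoREST complex, which joins a histone demethylase to histone deacetylases.

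The respiratory chain passes electrons from NADH (through complex I) and from succinate (through complex II) to ubiquinone, on through complex III to cytochrome c, and through complex IV to oxygen. Complexes I, III and IV pump protons while doing so, and contain core subunits made from mitochondrial DNA beside the nuclear ones described here. Complex II is wholly nuclear in origin and is also the succinate dehydrogenase of the citric acid cycle. Its subunits SDHA to SDHD are tumour suppressors in paraganglioma, a tumour that, like neuroblastoma, arises from the sympathoadrenal lineage. The transcription factors NRF1, GABPA and YY1 are known activators of many nuclear respiratory genes, and MYC proteins bind E-boxes.

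Promoter sequence was available for 49 of the 58 genes as 300-base windows, 250 bases before and 50 from the annotated start on (RefSeq, GRCh38.p14). Each window was searched on both strands for exact matches. The NRF1 motif (GCGCA, then any base, then GCGC) stood in 11 of 49 windows (22.4%), against 5.78% of all 35116 windows. The ETS motif of GABPA, CCGGAAG, stood in 13 of 49 (26.5%) against 10.3%. The YY1 motif AANATGGC stood in 18 of 49 (36.7%) against 6.58%, and the E-box CACGTG in 3 of 49 (6.12%) against 7.26%. In the 49 windows the NRF1, ETS and YY1 motifs were thus more frequent than over all windows, and the E-box was not. The 35116 windows were not limited to genes expressed in these cells. Whether the excess is particular to the 49 was therefore not tested. A match describes letters and does not show binding, and the absence of one says only that these letters are not in the window. The windows of 3 genes on which the results below turn are printed with their matches in capitals. UQCRFS1 (chr19:29213102-29213401, minus strand) holds an NRF1 match that begins 31 bases before the start and a YY1 match at base 31 after it. NDUFA11 (chr19:5903741-5904040, minus strand) holds an E-box 132 bases before the start and an NRF1 match 98 bases before it. In the expression data the NDUFA11 gene begins further upstream than this start, so both matches lie inside the gene as annotated there. UQCRC2 (chr16:21953111-21953410, plus strand) holds none of the 4 motifs. Its gene, too, begins further upstream in the expression data than the start used for its window.
UQCRFS1: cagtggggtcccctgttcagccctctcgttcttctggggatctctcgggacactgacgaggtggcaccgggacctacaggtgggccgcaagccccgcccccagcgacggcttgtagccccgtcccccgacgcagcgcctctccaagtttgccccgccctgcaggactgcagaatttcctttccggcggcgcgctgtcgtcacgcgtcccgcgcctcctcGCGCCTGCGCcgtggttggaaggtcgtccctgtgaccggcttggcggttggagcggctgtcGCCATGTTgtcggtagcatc
NDUFA11: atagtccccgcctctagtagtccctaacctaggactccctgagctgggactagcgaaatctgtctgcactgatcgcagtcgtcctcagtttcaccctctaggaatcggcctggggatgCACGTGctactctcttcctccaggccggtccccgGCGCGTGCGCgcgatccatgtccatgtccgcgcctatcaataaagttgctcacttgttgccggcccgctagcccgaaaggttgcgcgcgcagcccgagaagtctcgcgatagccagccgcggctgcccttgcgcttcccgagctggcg
UQCRC2: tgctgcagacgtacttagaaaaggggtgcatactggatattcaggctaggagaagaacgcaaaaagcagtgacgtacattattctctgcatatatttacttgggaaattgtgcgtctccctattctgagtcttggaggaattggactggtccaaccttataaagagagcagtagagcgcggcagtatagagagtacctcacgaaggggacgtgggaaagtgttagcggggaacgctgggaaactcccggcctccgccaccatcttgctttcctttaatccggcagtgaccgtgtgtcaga

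The shRNAs lowered their targets. RCOR2 had 17.7 and 20.5 TPM (a share of the RNA corrected for transcript length) in induced shRCOR2 libraries, against 55.4 and 49.9 TPM in untreated ones. RCOR1 had 4.80 and 5.07 TPM in induced shRCOR1 libraries, against 8.32 and 9.08 TPM in untreated ones. RCOR2 was also lower in induced shRCOR1 libraries (26.0 and 26.3 TPM) than in untreated ones (51.4 and 50.5 TPM), so the shRCOR1 results below come from cells in which both transcripts fell (limma adjusted p = 0.0109 for RCOR1 and 0.00278 for RCOR2). The libraries differed up to 2.14-fold in depth by the ratio of coverage to FPKM, and 14758 to 16026 genes reached 1 TPM in each. All 8 markers of adrenergic neuroblastoma were at 1 TPM or more in every library (summed level 3553 to 6198 TPM), all 3 leukocyte markers were below 1 TPM in every library, and the 3 epithelial markers summed to 0.143 to 4.13 TPM. The 5 fibroblast and endothelial markers summed to 32.3 to 149 TPM, with the endothelial PECAM1 and CDH5 below 1 TPM in every library. MYCN had 1269 and 1042 TPM in induced shRCOR2 libraries, against 3020 and 2677 TPM in untreated ones, 2190 and 2385 TPM in induced shRCOR1 libraries, against 2835 and 2826 TPM in untreated ones, and 2928 and 1421 TPM in induced shCTRL libraries, against 2923 and 2000 TPM in untreated ones. Among the other adrenergic markers GATA3 rose by 0.46 (log2) in shRCOR2 and fell by 0.70 in shRCOR1 cells, and ISL1 fell by 1.30 in shRCOR1 cells (limma adjusted p up to 0.0312). EPCAM, the only epithelial marker above 0, had 3.18 and 4.13 TPM in induced shRCOR1 libraries, against 0.286 and 0.309 TPM in untreated ones (1.83 ± 0.33, limma adjusted p = 0.0120), while CDH1 and KRT5 were at 0 in every library. EPCAM had 1.17 and 1.68 TPM in induced shRCOR2 libraries, against 0.218 and 0.542 TPM in untreated ones (0.82 ± 0.33, limma adjusted p = 0.132 without and 0.0237 with the block), and 0.206 and 1.55 TPM in induced shCTRL libraries, against 0.143 and 0.376 TPM in untreated ones. The part of these changes in the results below was not tested. In bulk RNA, fewer expressing cells and less RNA per cell cannot be told apart.

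The respiratory chain genes were among the abundant transcripts of these cells. Over the 6 untreated libraries the median of the 58 mean levels was 151 TPM, against 12.6 TPM over the 16842 genes tested, and 40 of the 58 reached 100 TPM. The summed level of all 58 was 8540 to 12107 TPM per library, 1.02% to 1.43% of the TPM outside the mitochondrial genome. The highest was UQCRH, the hinge protein of complex III that helps cytochrome c1 and cytochrome c interact, at 738 ± 58.7 TPM (SD, n = 6). NDUFS5, an accessory subunit of complex I, followed at 619 ± 90.4 TPM, then COX8A at 533 ± 79.6 TPM and COX4I1 at 496 ± 40.8 TPM, both structural subunits of complex IV. These neighbours overlapped in range, as did 55 of the 57 neighbouring pairs in the order, while genes further apart in it could be distinct. At the low end stood NDUFS1 at 30.2 ± 4.38 TPM, which carries iron-sulfur clusters of complex I, then NDUFV3 at 10.0 ± 0.330 TPM and NDUFA3 at 1.70 ± 1.28 TPM, the 2 genes below 20 TPM. The NDUFS1, NDUFV3 and NDUFA3 ranges did not overlap one another. Within complex II the highest was SDHC, a membrane anchor, at 188 ± 13.4 TPM and the lowest SDHD, the other anchor, at 62.8 ± 2.38 TPM. Within complex III the lowest was UQCRFS1, the Rieske iron-sulfur protein, at 73.6 ± 3.73 TPM. Within complex IV the lowest was COX7B at 64.0 ± 8.83 TPM.

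**Figure D1:**
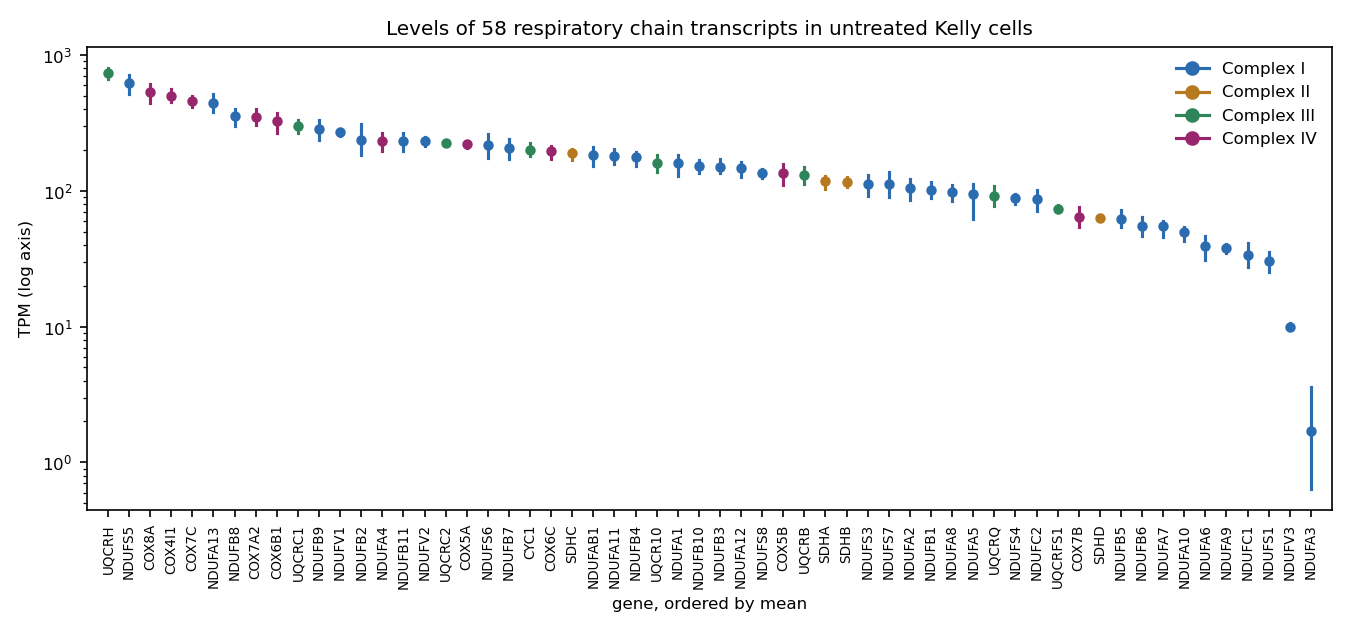
Mean TPM of each of the 58 genes in the 6 untreated libraries (points; lines give lowest to highest library; log axis), ordered by mean and coloured by complex. Most genes lie above 20 TPM in a graded order up to UQCRH (738 TPM), and NDUFV3 (10.0 TPM) and NDUFA3 (1.70 TPM) lie below the rest.

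The level of these genes differed between replicate numbers in every group. In all 6 groups, 45 of the 58 were lower in replicate 2 than in replicate 1, against 13.1% of all genes tested, and 0 of 58 were higher in all 6, against 30.6%. The 45 included 27 of 36 in complex I, 2 of 4 in complex II, 6 of 8 in complex III and 10 of 10 in complex IV. The median difference of the 58 (replicate 2 minus replicate 1, log2) lay between -0.39 and -0.26 over the groups, and that of all genes tested between 0.04 and 0.17. Of the 17 ATP synthase subunits 16 were lower in replicate 2 in every group, while of the 13 mitochondrially encoded subunits 0 were lower and 11 were higher in every group. The libraries' share of mitochondrial-genome transcripts, 13.3% to 21.4% of TPM, was also higher in replicate 2 of each group. So was the sum of the fibroblast and endothelial markers, at 52.1 to 149 TPM in replicate 2 and 32.3 to 43.6 TPM in replicate 1, most of it COL1A1 and PDGFRB, and its part in the shift was not tested. Labels do not say what the replicate numbers stand for. Because of this shared shift, fits with the replicate number as a block are given beside the counts and named genes whose calls they change. Fits without the block count the shift as spread within groups. For induced against untreated shRCOR1 cells the SE of COX8A was 0.26 without and 0.06 with the block. That of NDUFA3 was 0.78 and 0.77.

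Induced shRCOR2 cells, compared with untreated ones, had strong falls in single subunits of complexes I, III and IV and no common direction over the chain. Of the 58 genes 1 rose and 4 fell (8.62%), against 14.3% of all genes tested (7.81% rose, 6.47% fell), so the called share was below that over all genes. The median change was 0.04 on the log2 scale of TPM + 1, against 0.07 over all genes. The sign of the median turned with median-of-ratios scaling (-0.04), and 22 of 58 values were below zero, against 42.7% of all genes. Both induced libraries lay below both untreated ones for 8 of the 58 and above them for 11, against 25.7% and 37.6% of all genes.

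COX6C (ENSG00000164919.11), a nuclear-encoded structural subunit of complex IV, had 78.7 and 63.9 TPM in induced shRCOR2 libraries, against 212 and 170 TPM in untreated ones. Both induced libraries lay below all other 10 libraries of the study. COX6C fell by 1.41 ± 0.17 (log2, SE; limma adjusted p = 0.00228), while the other 9 subunits of complex IV lay between -0.44 and 0.31. UQCRC2 (ENSG00000140740.11, chr16:21953288-21983660, plus strand, GRCh38), a core protein of complex III, had 128 and 121 TPM in induced shRCOR2 libraries, against 230 and 226 TPM in untreated ones. The groups did not overlap, and the replicates within each nearly coincided. UQCRC2 fell by 0.87 ± 0.10 (limma adjusted p = 0.00174). UQCRC1, the other core protein, had 263 and 217 TPM in induced shRCOR2 libraries, against 330 and 267 TPM in untreated ones, and was called only with the block (-0.31, limma adjusted p = 0.262 without and 0.00513 with the block).

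UQCRFS1 (ENSG00000169021.6, chr19:29205320-29213151, minus strand) had 48.2 and 45.1 TPM in induced shRCOR2 libraries, against 72.9 and 70.6 TPM in untreated ones. The induced libraries were lower, without overlap. UQCRFS1 fell by 0.61 ± 0.11 (limma adjusted p = 0.00987). It was also lower in induced shCTRL cells (-0.55, called only with the block), and its difference from shCTRL, given below, was not called. NDUFAB1 (ENSG00000004779.10, chr16:23581014-23596316, minus strand), the mitochondrial acyl carrier protein, which sits in complex I and also serves fatty acid and lipoate synthesis, had 113 and 94.8 TPM in induced shRCOR2 libraries, against 209 and 153 TPM in untreated ones. Its groups did not overlap either, although its untreated libraries spread widely. NDUFAB1 fell by 0.78 ± 0.22 (limma adjusted p = 0.0443). NDUFV3 (ENSG00000160194.18, chr21:42879644-42913304, plus strand), a small accessory subunit of the NADH-binding part of complex I, had 14.9 and 13.9 TPM in induced shRCOR2 libraries, against 9.60 and 10.1 TPM in untreated ones. It was the only riser, without overlap of the groups, at 0.50 ± 0.12 (limma adjusted p = 0.0267).

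The COX6C and UQCRC2 calls held in each fit with 1 of the 12 libraries left out, with adjusted p up to 0.0251 and 0.0214. The UQCRFS1 and NDUFV3 calls were lost when any 1 of the 4 shRCOR2 libraries was left out (limma adjusted p 0.0563 to 0.0762 and 0.105 to 0.164), and the NDUFAB1 call when any of 8 libraries, those of the shRCOR2 and shRCOR1 lines, was left out (up to 0.238). NDUFAB1 was also not called with FPKM, with median-of-ratios scaling or without a filter on low values (0.0724 to 0.105), and NDUFV3 not with TPM recomputed without the mitochondrial genome (0.0619).

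With the block 8 of the 58 rose and 8 fell in shRCOR2 cells, against 21.4% and 14.8% of all genes, that is, 13.8% in each direction, below the shares over all genes. The 7 added rises were in COX7C of complex IV and in the complex I subunits NDUFA7, NDUFB4, NDUFA8, NDUFS4, NDUFS8 and NDUFA11, with changes of 0.31 to 0.49. For example, COX7C had 603 and 533 TPM in induced shRCOR2 libraries, against 501 and 416 TPM in untreated ones, above both. NDUFS8, which carries iron-sulfur clusters on the path to ubiquinone, had 189 and 157 TPM in induced libraries, against 137 and 133 TPM in untreated ones. The 4 added falls were in NDUFS3 and COX5B (-0.44 each), UQCRC1 and SDHC (-0.25). By complex the median was 0.12 in complex I (9 of 36 below zero), -0.14 in complex II (4 of 4 below zero), -0.05 in complex III and 0.02 in complex IV. Over the 17 other settings without the block the complex II median stayed below zero (-0.25 to -0.04), while those of complex I (-0.05 to 0.29), complex III (-0.24 to 0.14) and complex IV (-0.14 to 0.17) took both signs. The lowest of the complex I, III and IV medians came without untreated replicate 2 of the shRCOR2 line and the highest without its untreated replicate 1. Fits that leave out a library had no block, so the group concerned keeps a single replicate number. In untreated shRCOR2 cells the median shift of the 58 genes between replicates 2 and 1 was -0.32. The part of this shift in these ranges was not tested.

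**Figure D2:**
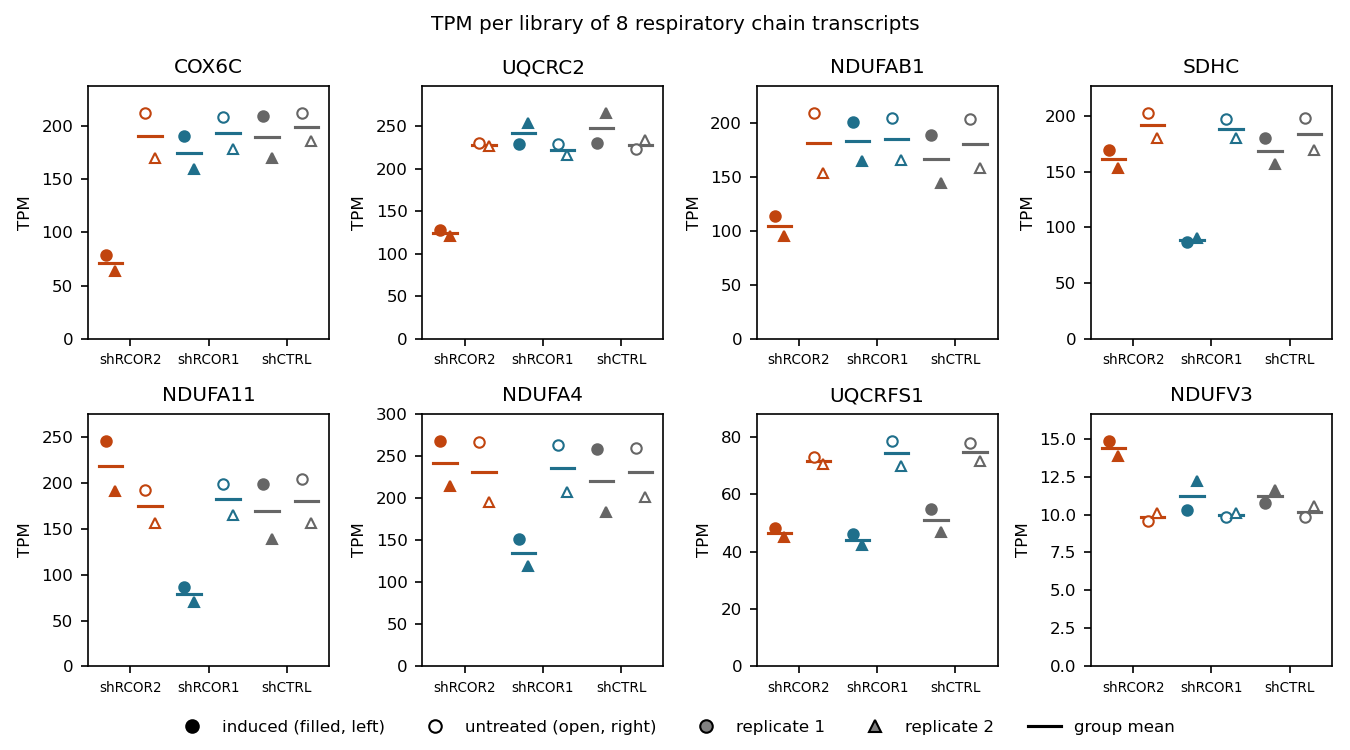
TPM per library of 8 genes (points; circles replicate 1, triangles replicate 2; bars give group means), with induced libraries filled and left of the open untreated ones in each line. COX6C, UQCRC2 and NDUFAB1 are low in induced shRCOR2 libraries, SDHC, NDUFA11 and NDUFA4 in induced shRCOR1 libraries, and UQCRFS1 in the induced libraries of all 3 lines.

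Induced shRCOR1 cells, compared with untreated ones, had falls in single subunits of complexes I, II and III. The complex III gene called without the block, UQCRFS1, was also lower in induced shCTRL cells. Values below zero ran over most of the chain, of which 5 passed the test without the block and 21 with it. Of the 58 genes 5 fell (8.62%) and 0 rose, against 3.64% that fell and 4.98% that rose of all genes tested (8.62% in all). The median change was -0.23, against 0.04 over all genes, and 50 of 58 values were below zero, against 45.7% of all genes. It was -0.24 in complex I (33 of 36 below zero), -0.17 in complex II, -0.14 in complex III and -0.20 in complex IV (9 of 10 below zero). Each of these 4 medians stayed below zero in the 17 other settings without the block, and they were not tested against one another. With the block 0 of 58 rose and 21 fell, against 15.4% and 12.1% of all genes: 12 in complex I, 2 in complex II, 3 in complex III and 4 in complex IV.

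NDUFA11 (ENSG00000174886.14, chr19:5891276-5904006, minus strand), a membrane-arm subunit of complex I at its contact with complex III, had 86.5 and 70.7 TPM in induced shRCOR1 libraries, against 199 and 165 TPM in untreated ones. Both induced libraries lay far below every other library. NDUFA11 fell by 1.20 ± 0.22 (limma adjusted p = 0.0144). SDHC (ENSG00000143252.16, chr1:161314381-161363206, plus strand), a haem-binding membrane anchor of complex II, had 87.3 and 90.4 TPM in induced shRCOR1 libraries, against 198 and 180 TPM in untreated ones. Its groups did not overlap, and the fall was 1.08 ± 0.12 (limma adjusted p = 0.00203). The other anchor, SDHD, had 47.5 and 54.7 TPM in induced shRCOR1 libraries, against 60.9 and 61.7 TPM in untreated ones, and was called only with the block (-0.26, limma adjusted p = 0.153 without and 0.0466 with the block). The catalytic subunits SDHA and SDHB were not called with or without the block.

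UQCRFS1 had 46.1 and 42.3 TPM in induced shRCOR1 libraries, against 78.7 and 69.9 TPM in untreated ones. It fell by 0.74 ± 0.11, without overlap (limma adjusted p = 0.00607). UQCRFS1 was also lower in induced shCTRL cells (-0.55, called only with the block), and its difference from shCTRL, given below, was not called. NDUFV2 (ENSG00000178127.13, chr18:9102630-9134345, plus strand), an iron-sulfur core subunit of the NADH-binding part of complex I, had 158 and 142 TPM in induced shRCOR1 libraries, against 250 and 225 TPM in untreated ones. The induced libraries were lower throughout, and the fall was 0.66 ± 0.14 (limma adjusted p = 0.0258). NDUFA10 (ENSG00000130414.13, chr2:239892450-240025743, minus strand), an accessory subunit of complex I, had 29.8 and 35.0 TPM in induced shRCOR1 libraries, against 42.6 and 50.5 TPM in untreated ones. It fell by 0.51 ± 0.13, close to the threshold (limma adjusted p = 0.0490). The SDHC call held in each fit with 1 of the 12 libraries left out (limma adjusted p up to 0.0268). NDUFA10 was not called in any of these (0.0515 to 0.251), nor with TPM without the mitochondrial genome (0.0754) or without a filter (0.0788). NDUFV2 was lost without any 1 of the 4 shRCOR1 libraries (0.0700 to 0.168), with median-of-ratios scaling (0.0754) and without a filter (0.0518). NDUFA11 was lost without untreated replicate 1 (0.112), untreated replicate 2 (0.0600) or induced replicate 2 (0.111) of that line, and UQCRFS1 without untreated replicate 1 (0.0634) or induced replicate 2 (0.0538).

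Of the genes called only with the block in shRCOR1 cells, the one with the largest change was NDUFA4, the complex IV subunit with a complex I name. It had 151 and 119 TPM in induced shRCOR1 libraries, against 264 and 208 TPM in untreated ones, which is lower without overlap but with replicates far apart (-0.80 ± 0.24, limma adjusted p = 0.0792 without and 0.000155 with the block). The other 9 with the largest changes were UQCR10 (-0.57) and UQCRQ (-0.50) of complex III, COX8A (-0.46) of complex IV, and NDUFB7 (-0.50), NDUFS5 (-0.50), NDUFB6 (-0.47), NDUFB3 (-0.43), NDUFA2 (-0.37) and NDUFA12 (-0.34) of complex I. In complex I, 12 of the 12 distal and 9 of the 9 proximal membrane-arm subunits were below zero, with medians of -0.29 and -0.28. In the NADH-binding (N) module 8 of 10 were below zero (median -0.22), and in the ubiquinone-binding (Q) module 4 of 5 (median -0.12, 0 called with or without the block). NDUFS1, at 0.28 ± 0.21, was the highest of the 58 and was not called.

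In shRCOR1 cells the induced library was lower within both replicate numbers for 45 of the 58 genes, against 35.2% of all genes. Both induced libraries lay below both untreated ones for 20 of the 58 (34.5%) and above them for 2, against 23.7% and 29.4% of all genes. The summed level of the 58 genes was 10360 and 8540 TPM in induced shRCOR1 libraries, against 12067 and 10085 TPM in untreated ones. Each induced sum was thus lower than the untreated one of its replicate number, but induced replicate 1 exceeded untreated replicate 2. The median of the 58 stayed below zero in each of the 17 other scalings, filters and left-out libraries tried without the block, at -0.39 to -0.05, and 36 to 52 values were below zero.

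Per complex, the summed level of complex I was 5153 and 4058 TPM in induced shRCOR1 libraries, against 6136 and 5084 TPM in untreated ones. Complex II summed to 409 and 353 TPM in induced shRCOR1 libraries, against 511 and 468 TPM in untreated ones, without overlap. Most of this difference was SDHC (-1.08, log2), while SDHD, SDHB and SDHA changed by -0.26, -0.07 and 0.06. Complex III summed to 1961 and 1781 TPM in induced shRCOR1 libraries, against 2047 and 1810 TPM in untreated ones, where UQCRH alone, at 862 and 782 TPM in induced and 785 and 715 TPM in untreated libraries, made up much of the sum. Complex IV summed to 2837 and 2348 TPM in induced shRCOR1 libraries, against 3374 and 2723 TPM in untreated ones. The 13 mitochondrially encoded subunits summed to 109750 and 138573 TPM in induced shRCOR1 libraries, against 125344 and 152589 TPM in untreated ones, lower within each replicate number as well. Of these 13, limma called 0, with 1 at an unadjusted p below 0.05, and with the block 5 fell, against 12.1% of all genes. In shRCOR2 cells limma called 0 of the 13, with 0 at an unadjusted p below 0.05, and with the block 5 rose and 2 fell, against 21.4% and 14.8% of all genes. No share of all genes at the unadjusted limit is given for the knockdown lines.

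**Figure D3:**
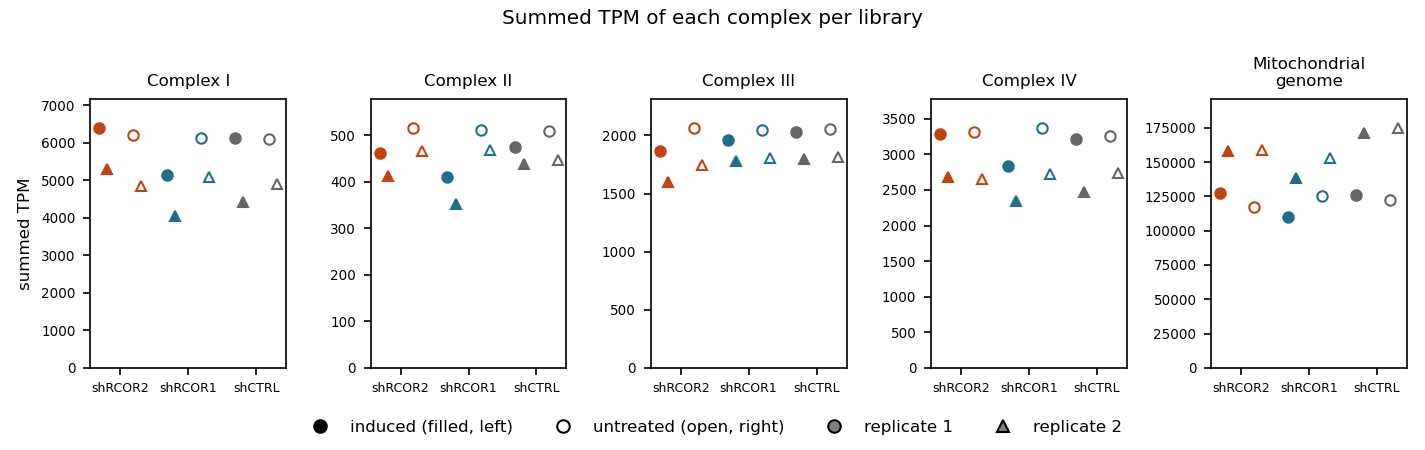
Summed TPM per library of the nuclear subunits of complexes I to IV and of the 13 subunits encoded by the mitochondrial genome, with induced libraries filled and left of the open untreated ones in each line (circles replicate 1, triangles replicate 2). Nuclear sums are lower in replicate 2 than in replicate 1 of each group and the mitochondrial sums are higher. Complex II is lowest in induced shRCOR1 libraries (409 and 353 TPM), and most of its difference from untreated shRCOR1 libraries is SDHC.

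In shCTRL cells limma called 0 of the 58 genes and 0.0% of all genes with doxycycline. At an unadjusted p below 0.05, 3 of the 58 were lower and 0 higher, against 5.57% of all genes in either direction. The median was -0.07, against -0.02 over all genes, and 43 of 58 values were below zero, against 53.9%. Both induced libraries lay below both untreated ones for 4 of the 58 and above them for 1, against 15.6% and 7.99% of all genes. With the block 1 of the 58 fell and 0 rose, against 0.0297% of all genes in each direction (0.0594% in all). That gene was UQCRFS1, with 55.1 and 47.0 TPM in induced shCTRL libraries, against 77.8 and 71.8 TPM in untreated ones. The fall of UQCRFS1 was 0.55 ± 0.11, without overlap (limma adjusted p = 0.782 without and 0.0469 with the block). Another 2 genes are named after their values were seen. COX7C had 374 and 344 TPM in induced shCTRL libraries, against 490 and 447 TPM in untreated ones (-0.38 ± 0.13, limma adjusted p = 0.871). NDUFA6, an accessory subunit of complex I of the LYR protein family, had 12.2 and 24.3 TPM in induced shCTRL libraries, against 42.4 and 30.8 TPM in untreated ones (-1.02 ± 0.32, limma adjusted p = 0.871). In both genes the induced libraries were the lower ones without overlap. Before induction the lines did not differ by this test: in untreated shRCOR2 and in untreated shRCOR1 cells against untreated shCTRL cells limma called 0 of the 58 and 0.0% of all genes, with or without the block. At an unadjusted p below 0.05 there were 1 and 0 of the 58, against 0.73% and 0.677% of all genes.

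**Figure D4:**
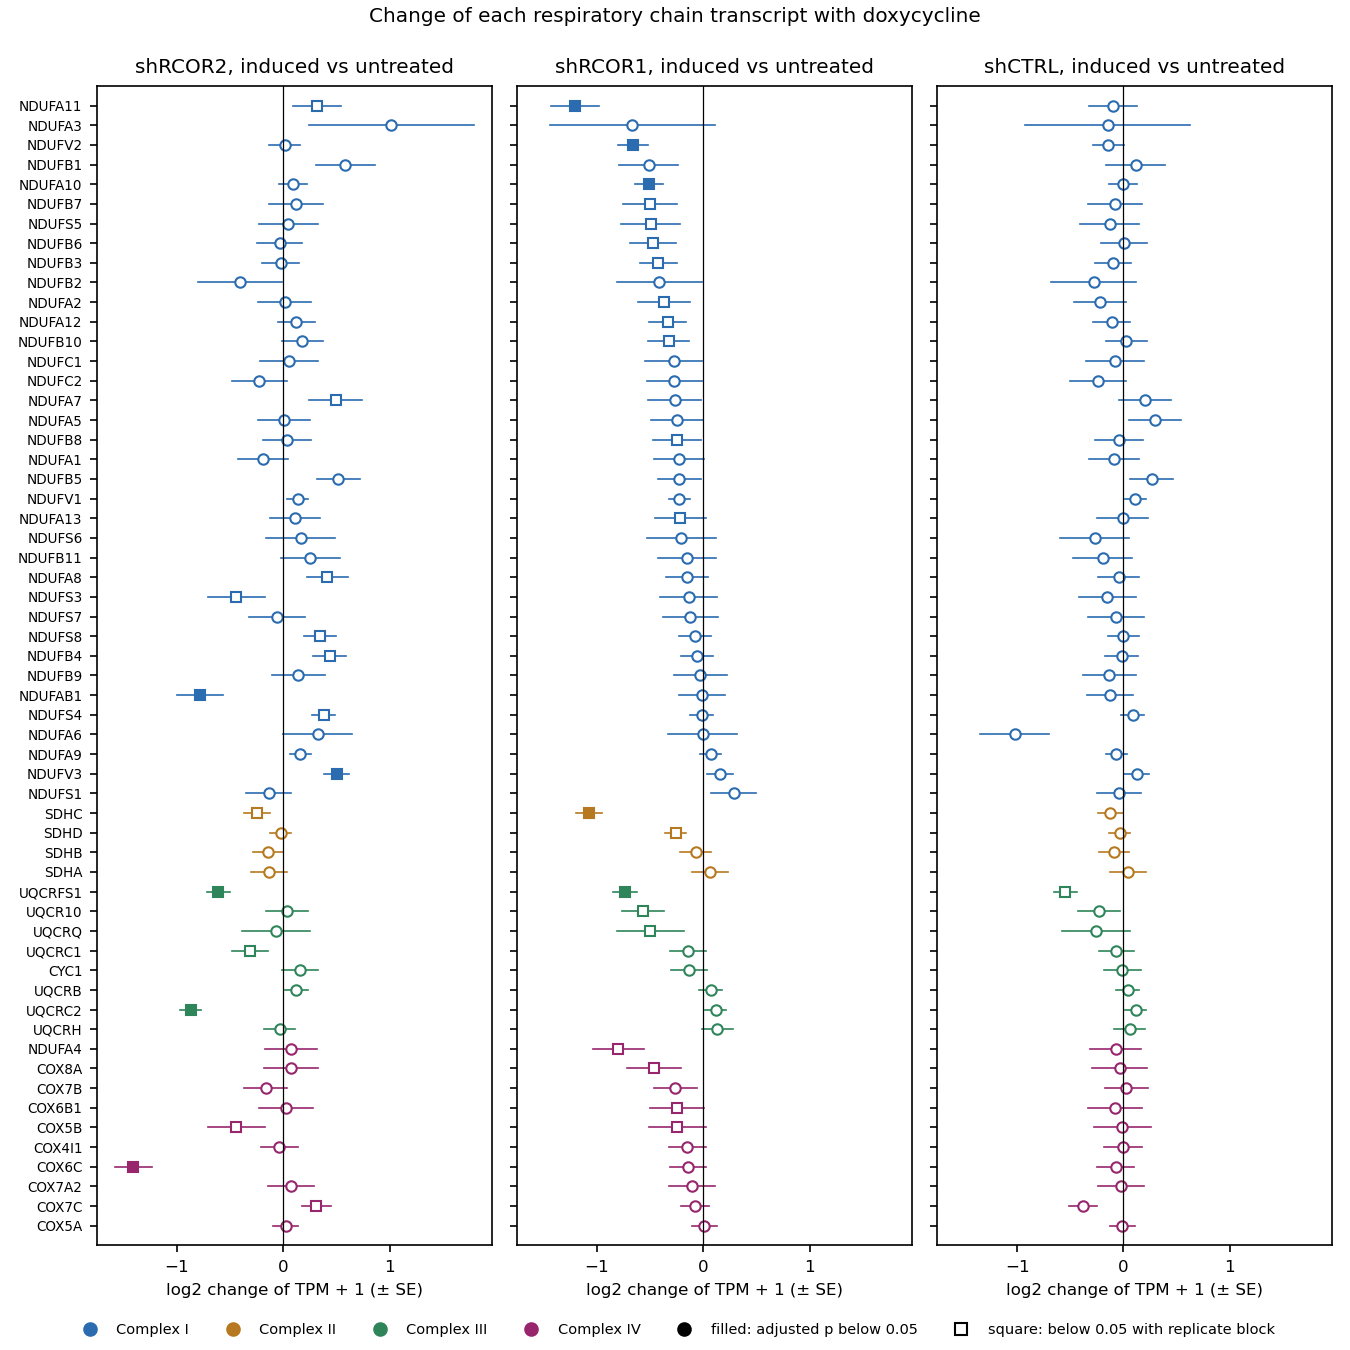
Change of each of the 58 genes with doxycycline in the 3 lines (log2 scale of TPM + 1, points with SE), grouped by complex and ordered by the change in shRCOR1 cells. Filled symbols passed limma's adjusted p of 0.05 and squares passed it with the replicate block. In shRCOR1 cells 50 of 58 points lie below zero, in shRCOR2 cells 22 and in shCTRL cells 43, and in shCTRL cells 1 point (UQCRFS1) is a square.

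To see which changes differed between the lines, each knockdown line's change was set against the shCTRL change, which both comparisons share. In the shRCOR2 line 2 of the 58 were lower relative to shCTRL and 0 higher (3.45%), against 2.09% of all genes (0.891% higher, 1.2% lower). These were COX6C at -1.34 ± 0.24 (limma adjusted p = 0.0361) and UQCRC2 at -0.98 ± 0.14 (limma adjusted p = 0.0182). COX6C had 210 and 170 TPM in induced shCTRL libraries, against 212 and 186 TPM in untreated ones, and UQCRC2 had 229 and 265 TPM, against 223 and 233 TPM, so neither was lower by more than the replicate spread there. The COX6C difference was not called in any fit with 1 library left out (limma adjusted p 0.0502 to 0.144), nor with median-of-ratios scaling (0.0731) or without a filter (0.0645), and the UQCRC2 difference was lost without any shRCOR2 library or either untreated shCTRL library (0.0679 to 0.0915). With the block 4 were higher (COX7C 0.70, NDUFA8 0.46, NDUFB4 0.45, NDUFA11 0.42) and 4 lower (COX6C, UQCRC2, NDUFAB1 -0.66, COX5B -0.43), against 8.93% and 5.8% of all genes.

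In the shRCOR1 line 1 of the 58 was lower relative to shCTRL (1.72%), against 1.28% of all genes (0.843% higher, 0.439% lower). It was SDHC, at -0.96 ± 0.17 (limma adjusted p = 0.0376), which had 181 and 157 TPM in induced shCTRL libraries, against 199 and 169 TPM in untreated ones. It was not called in any fit with 1 library left out (limma adjusted p 0.05001 to 0.182), nor with median-of-ratios scaling (0.105) or without a filter (0.0529). With the block 6 were lower and 0 higher, against 3.57% and 6.59% of all genes: NDUFA11 at -1.10, SDHC, NDUFA4 at -0.73, COX8A at -0.43, NDUFB10 at -0.36 and UQCR10 at -0.34. The median difference was -0.15, against 0.05 over all genes. Over the other settings without the block it ran between -0.33 and 0.01 and was above zero in 2 of the 17. It was lowest without induced replicate 2 of the shCTRL line and highest without untreated replicate 1 of the shRCOR1 line. In these 2 groups the median shift of the 58 genes between replicates 2 and 1 was -0.39 and -0.26. The part of that shift in the range was not tested. UQCRFS1, low in the induced libraries of all 3 lines, had differences from shCTRL of -0.07 ± 0.16 in the shRCOR2 and -0.19 ± 0.16 in the shRCOR1 line, neither called with or without the block (limma adjusted p = 0.905 and 0.706 without it).

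Set directly against each other, the shRCOR2 change minus the shRCOR1 change was higher for 2 of the 58 and lower for 2 (6.90%), against 11.2% of all genes (5.2% higher, 5.97% lower). Higher were NDUFA11 at 1.52 ± 0.32 (limma adjusted p = 0.0192) and SDHC at 0.83 ± 0.17 (limma adjusted p = 0.0178). NDUFA11 had 246 and 191 TPM in induced shRCOR2 libraries, against 192 and 157 TPM in untreated ones, with the induced library higher within each replicate number, whereas it fell in shRCOR1 cells. SDHC had 170 and 153 TPM in induced shRCOR2 libraries, against 203 and 181 TPM in untreated ones. Lower were COX6C at -1.26 ± 0.24 (limma adjusted p = 0.0145) and UQCRC2 at -0.99 ± 0.14 (limma adjusted p = 0.0050). COX6C had 190 and 160 TPM in induced shRCOR1 libraries, against 209 and 179 TPM in untreated ones, and UQCRC2 had 229 and 254 TPM, against 228 and 216 TPM. The UQCRC2 difference held in each fit with 1 library left out (up to 0.0287), whereas the other 3 were lost without some libraries of these 2 lines (up to 0.0802 for NDUFA11, 0.0788 for SDHC and 0.0587 for COX6C), and with median-of-ratios scaling NDUFA11 and SDHC were not called (0.0536 and 0.0829). With the block 23 of 58 were higher and 3 lower (COX6C, UQCRC2 and NDUFAB1), against 15.7% and 14.7% of all genes. The median difference was 0.33, against 0.04 over all genes. Of the 23, 18 were in complex I, 1 in complex II (SDHC), 1 in complex III (UQCR10) and 3 in complex IV, among them NDUFA4 (0.87). Of the complex I genes called higher only with the block, the largest differences were those of NDUFB1 (1.10), NDUFA7 (0.76), NDUFV2 (0.68), NDUFB7 (0.62) and NDUFA10 (0.60). The difference of the complex I median (0.39) exceeded that of complex II (0.08), III (0.09) and IV (0.14) in size, without a test between them.

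Some genes that build or serve the chain changed as well. Their counts in shRCOR2 cells stand against 7.81% that rose and 6.47% that fell of all genes, and with the block against 21.4% and 14.8%. COX7A2L, which joins complexes III and IV into supercomplexes, had 22.0 and 20.7 TPM in induced shRCOR2 libraries, against 112 and 97.7 TPM in untreated ones, and fell by 2.24 ± 0.12 (limma adjusted p = 0.000108). It was the 1 call among 3 supercomplex factors, and with the block HIGD2A, named after its value was seen, also rose (0.31). Of the 10 assembly factors of complexes II and III 2 fell and 0 rose (2 and 1 with the block), both falls being in factors acting in the late assembly of complex III around the Rieske protein UQCRFS1: LYRM7 had 5.82 and 6.73 TPM in induced shRCOR2 libraries, against 16.4 and 17.1 TPM in untreated ones (-1.29 ± 0.14), and TTC19 had 25.4 and 24.4 TPM, against 62.0 and 59.8 TPM (-1.26 ± 0.09). COX7A2L, LYRM7 and TTC19 were each also lower relative to shCTRL (limma adjusted p = 0.00182, 0.0259 and 0.00361). Of 14 complex I assembly factors 3 rose in shRCOR2 cells and 0 fell (5 and 0 with the block). NDUFAF3 had 70.8 and 67.7 TPM in induced shRCOR2 libraries, against 38.9 and 34.7 TPM in untreated ones (0.90 ± 0.16), ACAD9 changed by 0.47 ± 0.11 and NDUFAF1 by 0.41 ± 0.09. Of 20 complex IV assembly factors 1 rose and 0 fell (5 and 2 with the block). It was SURF1, with 115 and 100.04 TPM in induced shRCOR2 libraries, against 73.3 and 67.6 TPM in untreated ones (0.60 ± 0.11). Of 15 electron carriers and their suppliers 3 rose and 0 fell (7 and 1 with the block): ETFB, a subunit of the electron transfer flavoprotein, had 133 and 130.1 TPM in induced shRCOR2 libraries, against 60.4 and 69.9 TPM in untreated ones (1.01 ± 0.12), and the ubiquinone synthesis genes COQ6 and COQ5 changed by 0.96 ± 0.12 and 0.50 ± 0.12. ESRRG, a nuclear receptor that activates oxidative genes, rose by 0.79 ± 0.18, the 1 call among 12 regulators. With the block 3 regulators rose and 5 fell, among the falls NRF1 (-0.41, limma adjusted p = 0.204 without and 0.0169 with the block) and YY1 (-0.22, limma adjusted p = 0.108 without and 0.0339 with the block), which are named because their motifs were searched above. GABPA, whose motif was also searched, was at -0.21 and was not called with or without the block. In shCTRL cells NRF1 was at -0.18, YY1 at -0.20 and GABPA at -0.04, none of them called with or without the block.

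In shRCOR1 cells the calls in these lists without the block were all falls, and with it 4 rises joined them (NDUFAF2, TTC19, PET117 and GABPB1, at 0.25 to 0.48, named after their values were seen). The counts stand against 4.98% that rose and 3.64% that fell of all genes, and with the block against 15.4% and 12.1%. HIGD1A, a small inner-membrane protein that associates with complex IV, had 25.9 and 27.0 TPM in induced libraries, against 85.0 and 81.7 TPM in untreated ones, and fell by 1.62 ± 0.11 (limma adjusted p = 0.000221), also relative to shCTRL (-1.32 ± 0.16, limma adjusted p = 0.0108). SURF1, needed for complex IV assembly, had 43.3 and 36.9 TPM in induced shRCOR1 libraries, against 73.5 and 71.1 TPM in untreated ones, and fell by 0.84 ± 0.11. This is the reverse of its rise in shRCOR2 cells, and the difference between the lines was 1.44 ± 0.16 (limma adjusted p = 0.0023). COX16 was the other fall among 20 complex IV factors (-0.84 ± 0.20), of which 6 fell and 1 rose with the block. ACAD9 was the 1 fall among 14 complex I factors (-0.47 ± 0.11), with 6 falls and 1 rise with the block. SDHAF3 was the 1 among 10 factors of complexes II and III (-0.55 ± 0.11), with 3 falls and 1 rise with the block. ACAD9 and COQ5 also moved in opposite directions in the 2 lines, with differences of 0.94 ± 0.16 and 1.23 ± 0.17 (limma adjusted p = 0.00882 and 0.00496). Of the 15 carriers and suppliers COQ5 (-0.73 ± 0.12) and ETFA (-0.70 ± 0.15) fell, and with the block 6 fell and 0 rose. HIGD1A was the 1 call among 3 supercomplex factors, all of which fell with the block. Of 12 regulators YY1 fell by 0.36 ± 0.08 (23.3 and 23.5 TPM in induced shRCOR1 libraries, against 29.6 and 30.9 TPM in untreated ones) and TFAM, which maintains and transcribes mitochondrial DNA, by 0.81 ± 0.21 (28.7 and 28.8 TPM, against 51.0 and 51.4 TPM), the TFAM call lying at the threshold (limma adjusted p = 0.04999). In shCTRL cells YY1 was at -0.20 and TFAM at -0.29, neither called with or without the block. Of the 17 ATP synthase subunits limma called 0 in shRCOR1 cells, with 2 at an unadjusted p below 0.05. With the block 8 fell, against 12.1% of all genes. Of the 17 values 17 were below zero (median -0.21), against 45.7% of all genes. In shRCOR2 cells limma called 0 of the 17, with 1 at an unadjusted p below 0.05 and, with the block, 4 rises and 3 falls, against 21.4% and 14.8% of all genes. The share of all genes at the unadjusted limit is not given for the knockdown lines, so these unadjusted counts have no background beside them. Of 7 tissue or condition isoforms 3 could be tested and 0 were called in either line, with 0 at an unadjusted p below 0.05 and 0 with the block. In shCTRL cells limma called 0 genes of each of these lists, with or without the block. At an unadjusted p below 0.05 there were 3 carriers or suppliers, 1 complex IV factor, 1 regulator (YY1) and 1 supercomplex factor, against 5.57% of all genes.

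Some levels may hold reads of other genes or lack reads of their own. The sources used here do not state a strand setting or how reads that align to several places were counted. Numbered pseudogenes are listed for 34 of the 58 genes (120 in all), and 31 of the 58 are overlapped by another gene. For 9 of them such a gene reached 10% of their own mean level. UQCRFS1P1 stood at 9.16 TPM, 15.1% of UQCRFS1, and SDHAP1 and SDHAP3 at 27.6 and 15.3 TPM beside SDHA. NDUFA7 lies opposite the more abundant ribosomal protein gene RPS28 (408 TPM) and overlaps AC010323.1, NDUFA2 lies opposite IK (162 TPM) and TMCO6, and NDUFC1 lies opposite NAA15 (60.8 TPM). NDUFS3 overlaps CELF1, KBTBD4 and PTPMT1, NDUFB9 overlaps TATDN1, NDUFA3 overlaps TFPT and NDUFA5 has the pseudogene NDUFA5P11. NDUFA3, the lowest of the 58, has 5 numbered pseudogenes, and its mean and that of TFPT were 1.94 and 1.84 TPM. Whether reads of NDUFA3 were missed was not tested. Among the genes called without the block only UQCRFS1 has a pseudogene or overlapping gene that reached 10% of its level.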

How the data were processed

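Per the labels, RNA from Kelly cells was sequenced from directional libraries. Reads were handled with Trim Galore 0.6.7, HISAT2 2.2.1 and StringTie 2.1.7 on GRCh38/hg38 per the submitters' processing notes, while the sources used here name no annotation release. The deposited TPM sum to one total in all libraries after the authors' scaling, so they are shares of the RNA. The deposited FPKM served as an alternative, and the deposited coverage signal gave relative depth. Read counts are not in these files, so no counting intervals are given.

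The 16842 genes that reached 1 TPM in 2 or more libraries were fitted as log2(TPM + 1), which understates changes of low genes, with 6 group means over 12 libraries in limma 3.58.1 (R 4.3.3, trended variance). A gene was called when its p, adjusted by Benjamini-Hochberg over all of these genes, was below 0.05, which is also the limit for unadjusted p. The 58 genes, the other lists and the rule for naming genes (each member called, up to 10 called only with the block, up to 4 called genes of each other list, the extremes of level) were chosen with earlier results of these data known. Gene identifiers on several lines of a file were summed. The fit without the block was tested on simulated data, for the shRCOR2 induced against untreated comparison only. The simulated libraries were independent, unlike the real ones, whose same-numbered replicates were correlated. That test therefore does not cover the fits with the block or the differences between lines. The values of 1 marker gene are not reported here.

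Deviations from the group mean correlated between same-numbered replicates in all 15 pairs of groups (0.37 to 0.75), which is taken as pairing, so every fit was repeated with the replicate number as a block. Alternatives were FPKM, median-of-ratios scaling, TPM without the mitochondrial genome, a pseudocount of 0.1, no filter, and leaving out each library. When a library was left out, the lone library of its group was assumed to vary like the others. These fits had no block, so the shift between replicate numbers enters their changes and calls. Tables and figures used Python 3.11.15, numpy 2.4.6, pandas 2.3.3 and matplotlib 3.10.9.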

Additional observations from a re-analysis of the deposited data

Results flagged for a closer look

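Among the 58 genes, 7 changes differed between lines by a limma test of the difference itself. Relative to the shCTRL line, the change was -1.34 for COX6C and -0.98 for UQCRC2 in the shRCOR2 line, and -0.96 for SDHC in the shRCOR1 line. Between the shRCOR2 and the shRCOR1 change, the difference was 1.52 for NDUFA11, 0.83 for SDHC, -0.99 for UQCRC2 and -1.26 for COX6C. All are log2 differences of TPM + 1. Groups of 2 libraries are too small for a check of single outlying libraries.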

How the results depend on the processing

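The count of called genes among the 58 moved most with the replicate block. It was 16 for induced against untreated shRCOR2 cells (5 without the block), 21 for shRCOR1 (5), 1 for shCTRL (0), 8 for shRCOR2 against shCTRL (2), 6 for shRCOR1 against shCTRL (1) and 26 for shRCOR2 against shRCOR1 (4). Without a filter on low values, and with more genes therefore tested, it was 3 for shRCOR1, 1 for shRCOR2 against shCTRL and 0 for shRCOR1 against shCTRL. With median-of-ratios scaling it was 1 for shRCOR2 against shCTRL, 0 for shRCOR1 against shCTRL and 2 for shRCOR2 against shRCOR1. The cause of the changes with median-of-ratios scaling was not tested. With 1 library left out it ran from 2 to 6 for shRCOR2, from 1 to 4 for shRCOR1, from 0 to 1 for shRCOR2 against shCTRL and from 2 to 6 for shRCOR2 against shRCOR1, and was 0 throughout for shCTRL, for shRCOR1 against shCTRL and for the untreated lines. The 17 called changes of single genes gave 306 values under the alternatives, of which 212 kept the call, 94 lost it and 0 reversed. The block ended none of these 17 calls. Depth is known only as a ratio between libraries of up to 2.14, since read counts are not in these files, so the counting error of single values is unknown.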

Other observations

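The 58 genes are short, with a median transcript length of 693 bases against 1854 bases over coding genes tested. Among transcripts of up to 700 bases, the 29 respiratory chain genes had a median change of -0.25 in shRCOR1 cells, against 0.04 for 1178 other genes of that length. For transcripts between 700 and 1200 bases the medians were -0.23 (20 genes) and 0.00 (2686 genes), and above 1200 bases -0.14 (9 genes) and 0.05 (8899 genes). The difference between replicates 2 and 1, averaged over the 6 groups, was -0.29 for the 29 short respiratory chain genes and 0.05 for the other short ones. These are descriptions without a test.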
